A study of Caenorhabditis elegans with 13 samples.

Results

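The genes described here are 10 writers and readers of histone H3 lysine 9 (H3K9) methylation in *Caenorhabditis elegans*: *met-2*, *set-25*, *set-32*, *cec-4*, *cec-1*, *cec-3*, *hpl-1*, *hpl-2*, *lin-61* and *lin-13*. They were chosen by name from a table of 46170 genes, and each name matched 1 row. RNA was sequenced from packed L1 larvae that had hatched overnight and then fed for 3 hours on OP50 bacteria. The first group, of 4 libraries, was N2 worms labelled *dpy-27(RNAi)*. Strain RB2301, carrying *cec-4(ok3124)*, and strain EKM99, carrying both *met-2(n4256)* and *set-25(n5021)*, gave 3 libraries each on vector RNAi. N2 on vector RNAi, called wild type below, gave 3 more. Each mutant genotype is represented by 1 strain, so the allele and the rest of that strain's genome cannot be told apart. The question is how the level of each gene of this pathway stands when a writer pair, a reader or a subunit of the dosage compensation complex (DCC) is targeted.

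Methylated H3K9 marks the silent part of the genome, heterochromatin. In *C. elegans*, MET-2 places mono- and dimethyl marks and SET-25 adds the trimethyl mark. Proteins with a chromodomain or related fold bind the mark, and one of them, CEC-4, sits at the nuclear envelope and anchors methylated chromosome arms there in embryos. DPY-27 is a condensin subunit of the DCC, which lowers expression from both X chromosomes of hermaphrodites.

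Every value is the authors' mean for a group, in FPKM (fragments per kilobase of transcript, scaled to the mapped fragments of the library). FPKM is scaled to transcript length, so levels of different genes can be set side by side. With 1 mean per group there is no spread between replicates and no test, and the differences below are sizes without an error. A difference is given as the log2 of the ratio to wild type after adding 0.1 FPKM to both means. "Past 1.5-fold" means a log2 ratio of at least 0.585 in either direction. Genes entered the counts if their mean over the 4 groups was above 1 FPKM, which 16438 genes were, 13183 of them protein-coding. Of the 10 writers and readers, 9 passed this minimum and *set-32* did not. All 3 comparisons use the same wild type mean, so they are not independent of each other.

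In wild type worms all readers but *hpl-1* were more abundant than the 3 writers. *cec-1* (72.7 FPKM) and *hpl-2* (69.6 FPKM) headed the order and were within 1.05-fold of each other. *lin-13* followed at 38.0 FPKM, and *cec-3* (24.6), *lin-61* (21.9), *cec-4* (18.2), *met-2* (17.7) and *hpl-1* (15.7 FPKM) formed a block in which each gene was within 1.205-fold of the next. The writers *set-25* (8.93 FPKM) and *set-32* (0.67 FPKM) came last. The level of *cec-1* exceeded that of 88.4% of all genes tested, and that of *set-25* exceeded 42.7%.

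**Figure D1:**
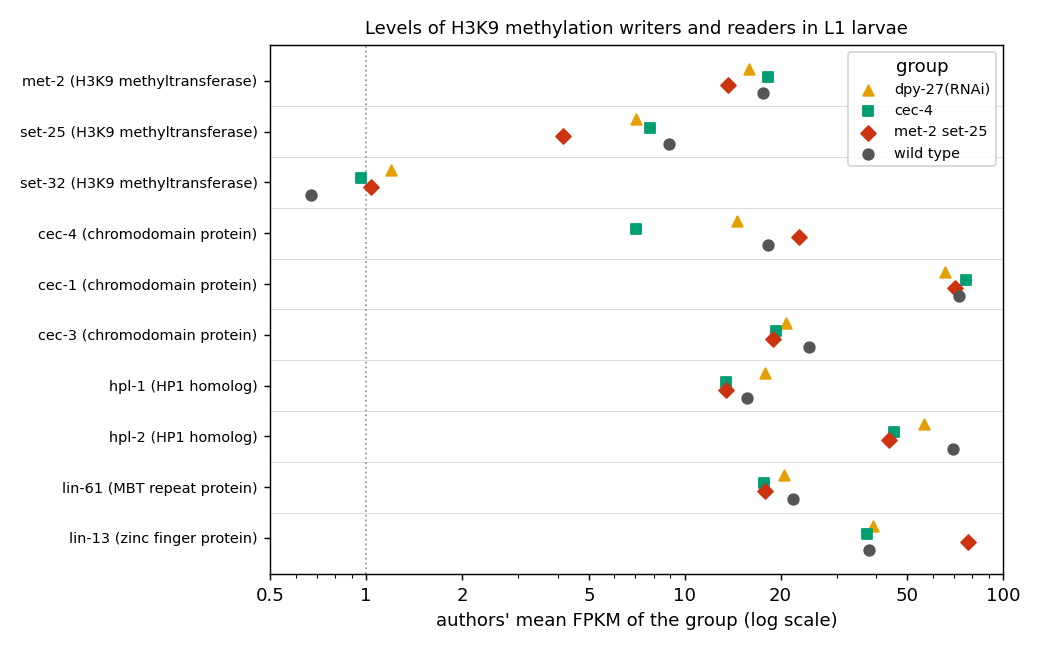
Mean FPKM (horizontal log axis) of the 10 genes in the 4 groups, 1 symbol per group mean; no error can be drawn. The dotted line marks the minimum of 1 FPKM. *cec-4* stands lowest in *cec-4* mutants, *set-25* lowest and *lin-13* highest in *met-2 set-25* mutants, and the 4 symbols of *cec-1* lie within 1.16-fold.

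The targeted genes were read as a check of the labels, and only *cec-4* and *set-25* were past 1.5-fold lower in their own group. *cec-4*, on chromosome IV (WBcel235, 7575718 to 7577326, plus strand), stood at 7.02 FPKM in *cec-4* mutants and at 14.5 FPKM in *dpy-27(RNAi)*-labelled worms, 22.9 FPKM in *met-2 set-25* mutants and 18.2 FPKM in wild type. Its level in the *cec-4* mutants was 38.6% of wild type, a log2 ratio of -1.36, and 1.46% of protein-coding genes had a lower ratio in that comparison. It was also 48.2% of the level in *dpy-27(RNAi)*-labelled worms and 30.7% of that in *met-2 set-25* mutants, so the mutant stood lowest against every other group. The transcript was thus lower in the mutant but not at 0. *cec-4* lies inside the annotated span of *F32E10.5*, which runs on the opposite strand, and 141 of the 1119 exon bases of *cec-4* (12.6%) are also exon of *F32E10.5*. The libraries kept no strand, so reads on the shared bases cannot be told apart. *F32E10.5* itself was at 6.38 FPKM in *cec-4* mutants and 7.78 FPKM in wild type, a log2 ratio of -0.28.

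*set-25*, on chromosome III (13283824 to 13293090, minus strand), stood at 4.15 FPKM in *met-2 set-25* mutants, against 7.02 FPKM in *dpy-27(RNAi)*-labelled worms, 7.78 FPKM in *cec-4* mutants and 8.93 FPKM in wild type. This was 46.5% of wild type (log2 ratio -1.09), 53.4% of *cec-4* mutants and 59.2% of *dpy-27(RNAi)*-labelled worms. Of protein-coding genes, 4.29% had a lower ratio than *set-25* in that comparison. At its 3′ end 64 exon bases (2.29%) are shared with *unc-64*, the syntaxin gene on the opposite strand. *unc-64* stood far above *set-25*, at 110 FPKM in *met-2 set-25* mutants and 94.6 FPKM in wild type. Reads on the shared bases cannot be told apart here either. Their part in the level of *set-25*, and in what remained of it in the mutants, was not tested.

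The other mutated gene of the same strain was closer to its wild type level. *met-2*, on chromosome III (8375300 to 8380848, plus strand), had 13.7 FPKM in *met-2 set-25* mutants, against 15.9 FPKM in *dpy-27(RNAi)*-labelled worms, 18.2 FPKM in *cec-4* mutants and 17.7 FPKM in wild type. The mutants had 77.6% of the wild type level (log2 ratio -0.36), which does not pass 1.5-fold, and 24.6% of protein-coding genes stood lower. The ratio of *met-2* to *set-25* was accordingly 3.30 in *met-2 set-25* mutants, 2.34 in *cec-4* mutants, 2.27 in *dpy-27(RNAi)*-labelled worms and 1.98 in wild type. A value for the whole gene does not say which exons were read, and the bases that each allele removes or alters were not used here, so a transcript near its wild type level says nothing about the protein.

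*dpy-27*, which is no H3K9 gene but the target of the RNAi, was at 31.6 FPKM in the worms labelled for its RNAi, against 36.4 FPKM in *cec-4* mutants, 33.2 FPKM in *met-2 set-25* mutants and 32.3 FPKM in wild type. Its log2 ratio to wild type was -0.03, so the FPKM of the target do not set this group apart. The study assessed the depletion by DPY-27 protein in larvae of the same collection, which is not part of these values, and the transcript level alone is not read against the label. Results for it are therefore given under its label.

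Across the 9 genes above the minimum, few stood past 1.5-fold. In *dpy-27(RNAi)*-labelled worms 0 were higher and 0 lower. Of all genes tested in that comparison 14.2% were higher and 8.45% lower by this fold, and of protein-coding genes 10.5% and 5.58%. In *cec-4* mutants 0 were higher and 2 lower, *cec-4* itself and *hpl-2*, beside 22.0% higher and 11.7% lower of all genes and 18.5% and 9.63% of protein-coding genes. In *met-2 set-25* mutants 1 was higher, *lin-13*, and 2 were lower, *set-25* itself and *hpl-2*, beside 21.5% higher and 16.3% lower of all genes and 17.4% and 14.8% of protein-coding genes. In each mutant 1 of the 2 lower genes is a mutated gene, and counts this small are not read as a result about the 9 genes.

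The medians of the 9 genes were below those of all genes tested. The median log2 ratio was -0.15 in *dpy-27(RNAi)*-labelled worms (all genes 0.04), -0.22 in *cec-4* mutants (all genes 0.12) and -0.29 in *met-2 set-25* mutants (all genes 0.05). In each comparison 7 of the 9 had a ratio below 0, where 43.1%, 41.1% and 44.9% of all genes did, in the same order of comparisons. The 9 include the mutated genes, which count among those below 0 in their own strain. These were *cec-4* (-1.36) in *cec-4* mutants, and *set-25* (-1.09) and *met-2* (-0.36) in *met-2 set-25* mutants. The counts and medians of the mutants are therefore partly set by the choice of strains. Set against the median of all genes, 8 of 9 lay below it in *dpy-27(RNAi)*-labelled worms, 9 of 9 in *cec-4* mutants and 7 of 9 in *met-2 set-25* mutants. Wild type, which all comparisons share, had the highest mean of the 4 groups for *set-25*, *cec-3*, *hpl-2* and *lin-61*. Against the geometric mean of the other 3 groups, some signs changed. In *dpy-27(RNAi)*-labelled worms *set-25* (0.08), *cec-4* (0.02), *hpl-2* (0.13) and *lin-61* (0.11) then lay above 0, and *lin-13* (-0.30) below it. In *cec-4* mutants *set-25* (0.28) lay above 0, and the remaining signs stayed. In *met-2 set-25* mutants all 9 kept their sign, with *cec-1* at -0.02. The signs below 0 thus rest in part on the wild type mean in *dpy-27(RNAi)*-labelled worms and, for *set-25*, in *cec-4* mutants.

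**Figure D2:**
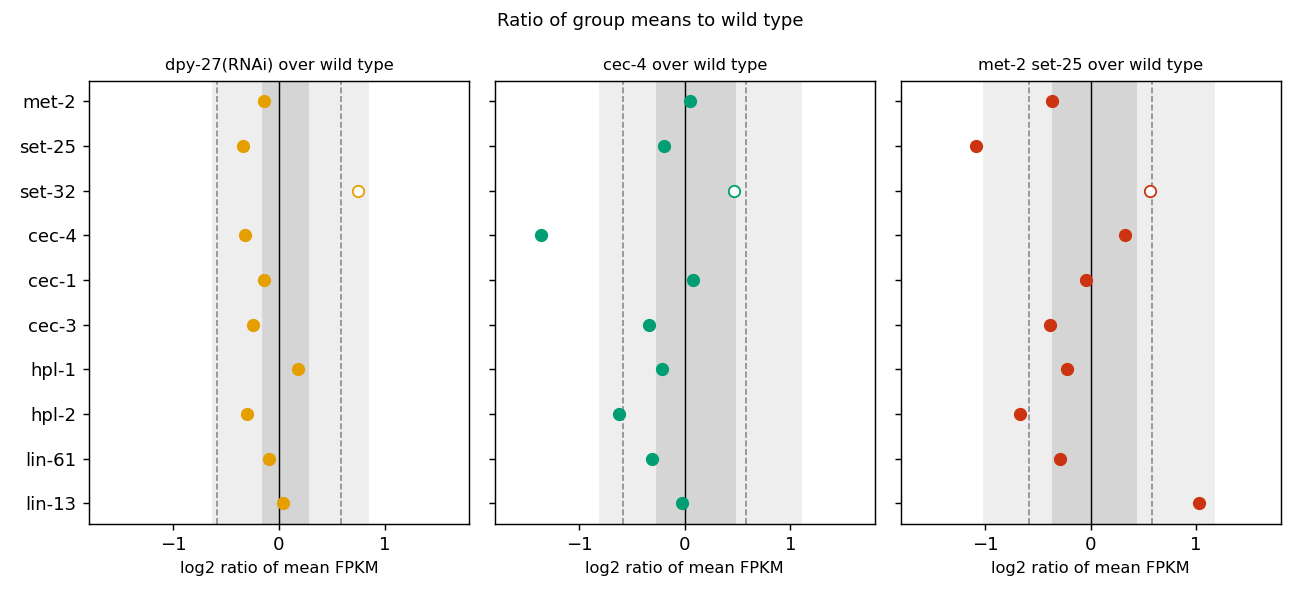
Log2 ratio of mean FPKM to wild type (horizontal axis) for the 10 genes, 1 panel per comparison; *set-32*, under 1 FPKM on average, is open. Dashed lines mark 1.5-fold, dark and light grey the middle 50% and 90% of protein-coding genes. Outside the light band are *cec-4* at -1.36 in its own mutant and *set-25* at -1.09 in *met-2 set-25* mutants, while *lin-13* at 1.03 lies near its upper edge of 1.17.

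Among the writers, *set-32* was the least expressed. SET-32 is a predicted H3K9 methyltransferase known from inherited nuclear RNAi. It was listed at 1.2 FPKM in *dpy-27(RNAi)*-labelled worms, 0.96 FPKM in *cec-4* mutants, 1.04 FPKM in *met-2 set-25* mutants and 0.67 FPKM in wild type. Wild type was the lowest group, with log2 ratios of 0.75 for *dpy-27(RNAi)*-labelled worms, 0.47 for *cec-4* mutants and 0.56 for *met-2 set-25* mutants. All of these means lie near the minimum of 1 FPKM. Of the remaining writer values, *met-2* in *cec-4* mutants had a log2 ratio of 0.05, and *set-25* had -0.34 in *dpy-27(RNAi)*-labelled worms and -0.20 in *cec-4* mutants.

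Of the chromodomain readers, *cec-4* in the writer mutants was on the other side of wild type from its own mutant. It had 22.9 FPKM in *met-2 set-25* mutants and 18.2 FPKM in wild type, a log2 ratio of 0.33, short of 1.5-fold. *cec-1*, which encodes a small chromodomain protein, varied least of the 10 genes, with 65.8 FPKM in *dpy-27(RNAi)*-labelled worms, 76.6 FPKM in *cec-4* mutants, 70.7 FPKM in *met-2 set-25* mutants and 72.7 FPKM in wild type. The highest of these means was 1.16 times the lowest. *cec-3*, whose protein binds methylated H3K9, had 20.7, 19.4 and 18.9 FPKM in the *dpy-27(RNAi)*-labelled, *cec-4* and *met-2 set-25* groups and 24.6 FPKM in wild type. Its log2 ratios were -0.25, -0.34 and -0.38 in that order, so wild type was highest and the 3 other means lay close together.

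*hpl-1* and *hpl-2* encode the HP1 proteins of the worm, chromodomain proteins that bind methylated H3K9 and compact chromatin. *hpl-2*, on chromosome III (10752195 to 10755530, minus strand), had 56.4 FPKM in *dpy-27(RNAi)*-labelled worms, 45.3 FPKM in *cec-4* mutants, 43.8 FPKM in *met-2 set-25* mutants and 69.6 FPKM in wild type. The mutants were 1.54-fold (*cec-4*) and 1.59-fold (*met-2 set-25*) lower than wild type, log2 ratios of -0.62 and -0.67, and 8.38% and 12.3% of protein-coding genes stood lower in these comparisons. The 2 mutant means differed from each other by 0.05 on the log2 scale. Both calls rest on the wild type mean. Against *dpy-27(RNAi)*-labelled worms, the other N2 group, the log2 ratio was -0.32 in *cec-4* mutants and -0.36 in *met-2 set-25* mutants, short of 1.5-fold. Against the geometric mean of the other 3 groups it was -0.30 in *cec-4* mutants and -0.36 in *met-2 set-25* mutants, also short of it. That reference includes the other mutant, whose level was similar, so it shrinks the ratio by itself. *hpl-1*, on the X chromosome, had 17.9 FPKM in *dpy-27(RNAi)*-labelled worms, 13.5 FPKM in *cec-4* mutants, 13.4 FPKM in *met-2 set-25* mutants and 15.7 FPKM in wild type. Its log2 ratios were 0.18, -0.22 and -0.23 in that order. The transcript ratio of *hpl-2* to *hpl-1* was 3.16, 3.35 and 3.26 in the *dpy-27(RNAi)*-labelled, *cec-4* and *met-2 set-25* groups and 4.42 in wild type, so wild type stood apart from 3 groups that were close to each other.

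LIN-61, with MBT repeats that bind methylated H3K9, and LIN-13, a zinc finger protein that binds HPL-2, are known as partners of HPL-2 in one complex. *lin-61* had 20.5 FPKM in *dpy-27(RNAi)*-labelled worms, 17.7 FPKM in *cec-4* mutants, 17.9 FPKM in *met-2 set-25* mutants and 21.9 FPKM in wild type, with log2 ratios of -0.09, -0.31 and -0.29. None of these passes 1.5-fold. *lin-13* was the one gene of the 10 that stood past 1.5-fold higher than wild type among those above 1 FPKM. On chromosome III (7700338 to 7709491, minus strand), it had 77.4 FPKM in *met-2 set-25* mutants, against 38.9 FPKM in *dpy-27(RNAi)*-labelled worms, 37.2 FPKM in *cec-4* mutants and 38.0 FPKM in wild type. The 3 groups with intact *met-2* and *set-25* differed little, and the double mutant was 2.04-fold above wild type, a log2 ratio of 1.03. It was also above the other groups, by 0.99 over *dpy-27(RNAi)*-labelled worms and 1.05 over *cec-4* mutants. This places *lin-13* first among the 10 genes in the double mutant, ahead of *cec-1*, and gives it rank 3 in each of the other groups. In that comparison 93.5% of protein-coding genes had a lower ratio and 6.81% were at least 2-fold higher, so a difference of this size was not rare.

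Germline markers were also high in the group where *lin-13* was high. The germline markers *pgl-1* and *glh-1*, both P granule genes, were past 1.5-fold higher in *met-2 set-25* mutants, 2 of 2 listed, and neither was at 0 in any group. In *dpy-27(RNAi)*-labelled worms 1 of 2 was, *pgl-1* at 7.51 FPKM, and in *cec-4* mutants 0 of 2. *pgl-1* had 25.03 FPKM in *met-2 set-25* mutants and 3.45 FPKM in wild type, and *glh-1* had 168 FPKM in *met-2 set-25* mutants and 25.6 FPKM in wild type. Their summed level was 34.3 FPKM in *dpy-27(RNAi)*-labelled worms, 22.0 FPKM in *cec-4* mutants, 193 FPKM in *met-2 set-25* mutants and 29.0 FPKM in wild type. The part of these transcripts in the level of *lin-13* was not tested. In whole larvae, which cells held a transcript, how many they were and how much RNA each held cannot be told apart. Of the other markers, *myo-3* of body wall muscle was past 1.5-fold higher in both mutants, with 310 FPKM in *cec-4* mutants, 277 FPKM in *met-2 set-25* mutants and 164 FPKM in wild type. *unc-54*, the other muscle marker, was short of 1.5-fold in both, with 997 FPKM in *cec-4* mutants, 936 FPKM in *met-2 set-25* mutants and 701 FPKM in wild type (log2 ratios 0.51 and 0.42). The part of these muscle transcripts in the lower *hpl-2* was not tested. The intestine pair (*elt-2*, *ges-1*) and the neuronal pair (*unc-119*, *rab-3*) were within 1.5-fold of wild type in all comparisons. Hypodermal *dpy-7* and *bli-1*, the yolk genes *vit-2*, *vit-5* and *vit-6* and the sperm genes *msp-3* and *msp-142* were low, and *msp-3* was at 0 in every group, with a summed level in any group of at most 1.504 FPKM for hypodermis, 0.41 FPKM for yolk and 0.056 FPKM for sperm.

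*lin-13* shares chromosome III with 4 others of the 10 genes. *met-2* and *cec-1* lie 45.5 kb apart, *lin-13* and *met-2* 666 kb apart, and *set-25* lies 4903 kb from *met-2*, so the double mutant joins alleles at distant places on that chromosome. The nearest genes above 1 FPKM on each side were read for the mutated genes and, after its value had been seen, for *lin-13*.

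Next to *met-2*, *R05D3.2* ends 128 bp before the gene and *R05D3.12* starts 97 bp after it. *R05D3.2* had 24.9 FPKM in *met-2 set-25* mutants and 16.7 FPKM in wild type (log2 ratio 0.57), and its ratio in *cec-4* mutants, where *met-2* is intact, was 0.66. *R05D3.12* had 22.8 FPKM in *met-2 set-25* mutants and 16.2 FPKM in wild type (0.49), and its ratio in *cec-4* mutants was 0.07. Of the 6 neighbours 0 were past 1.5-fold higher and 2 lower in *met-2 set-25* mutants, beside 21.5% and 16.3% of all genes. These were *R05D3.9*, with 9.81 FPKM in the mutants and 16.6 FPKM in wild type, and the non-coding *R05D3.13*, listed at 0 in the mutants and at 3.64 FPKM in wild type. Both lower neighbours were also past 1.5-fold lower in *dpy-27(RNAi)*-labelled worms, at log2 ratios of -0.67 and -1.40. Thus *met-2*, at -0.36 in its mutant, stood between genes at 0.57 and 0.49, all short of 1.5-fold.

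Around *set-25*, *unc-64*, which overlaps its 3′ end, had 110 FPKM in *met-2 set-25* mutants and 94.6 FPKM in wild type, a log2 ratio of 0.22. On the other side *npp-18*, a nuclear pore gene 3763 bp away, had 19.3 FPKM in *met-2 set-25* mutants and 33.9 FPKM in wild type (log2 ratio -0.81). Its ratio in *cec-4* mutants was -0.61. The farthest of the 3 genes on that side, the kinesin gene *klp-19*, was the other of the 2 neighbours of 6 past 1.5-fold lower (16.3% of all genes), at -0.89 in *met-2 set-25* mutants and -0.98 in *cec-4* mutants. Both lower neighbours were thus also lower where *set-25* is not mutated.

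Next to *cec-4*, *cec-5*, another chromodomain gene, has its 3′ end 1180 bp from the 3′ end of *cec-4*. It had 75.4 FPKM in *cec-4* mutants and 119.4 FPKM in wild type, a log2 ratio of -0.66, and was also lower in *met-2 set-25* mutants at -0.56, short of 1.5-fold. Of the 6 neighbours 2 were past 1.5-fold higher and 1 lower in *cec-4* mutants, beside 22.0% and 11.7% of all genes. The median of the 6 was -0.15, far from the -1.36 of *cec-4* itself.

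Around *lin-13*, some neighbours had larger ratios in *met-2 set-25* mutants than *lin-13* itself. *C18H2.1* had 4.88 FPKM in *met-2 set-25* mutants, 0.17 FPKM in *dpy-27(RNAi)*-labelled worms, 0.14 FPKM in *cec-4* mutants and 0.22 FPKM in wild type. It passed the minimum of 1 FPKM through the double mutant alone, so that its high ratio there (log2 3.97) was fixed by the filter. The non-coding *C03B8.6* likewise passed through the *dpy-27(RNAi)*-labelled worms alone and was listed at 0 elsewhere. *C03B8.3*, which starts 2818 bp from the 5′ end of *lin-13* on the opposite strand, had 7.39 FPKM in *met-2 set-25* mutants and 1.04 FPKM in wild type (2.71). The pseudogene *C03B8.2*, which lies inside the span of *C03B8.3* on the same strand, had 69.3 FPKM in *met-2 set-25* mutants and 12.5 FPKM in wild type (2.46), and reads of that pair may not be separable. In *cec-4* mutants the ratios of *C18H2.1*, *C03B8.3* and *C03B8.2* were -0.38, 0.20 and -1.04. In *dpy-27(RNAi)*-labelled worms they were -0.21, -0.26 and 0.78 in that order, so *C03B8.2* was past 1.5-fold higher there too. At least 4-fold higher levels were seen in 1.83% of protein-coding genes in *met-2 set-25* mutants. These neighbours were read because of the value of *lin-13*, so no count of them is given.

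**Figure D3:**
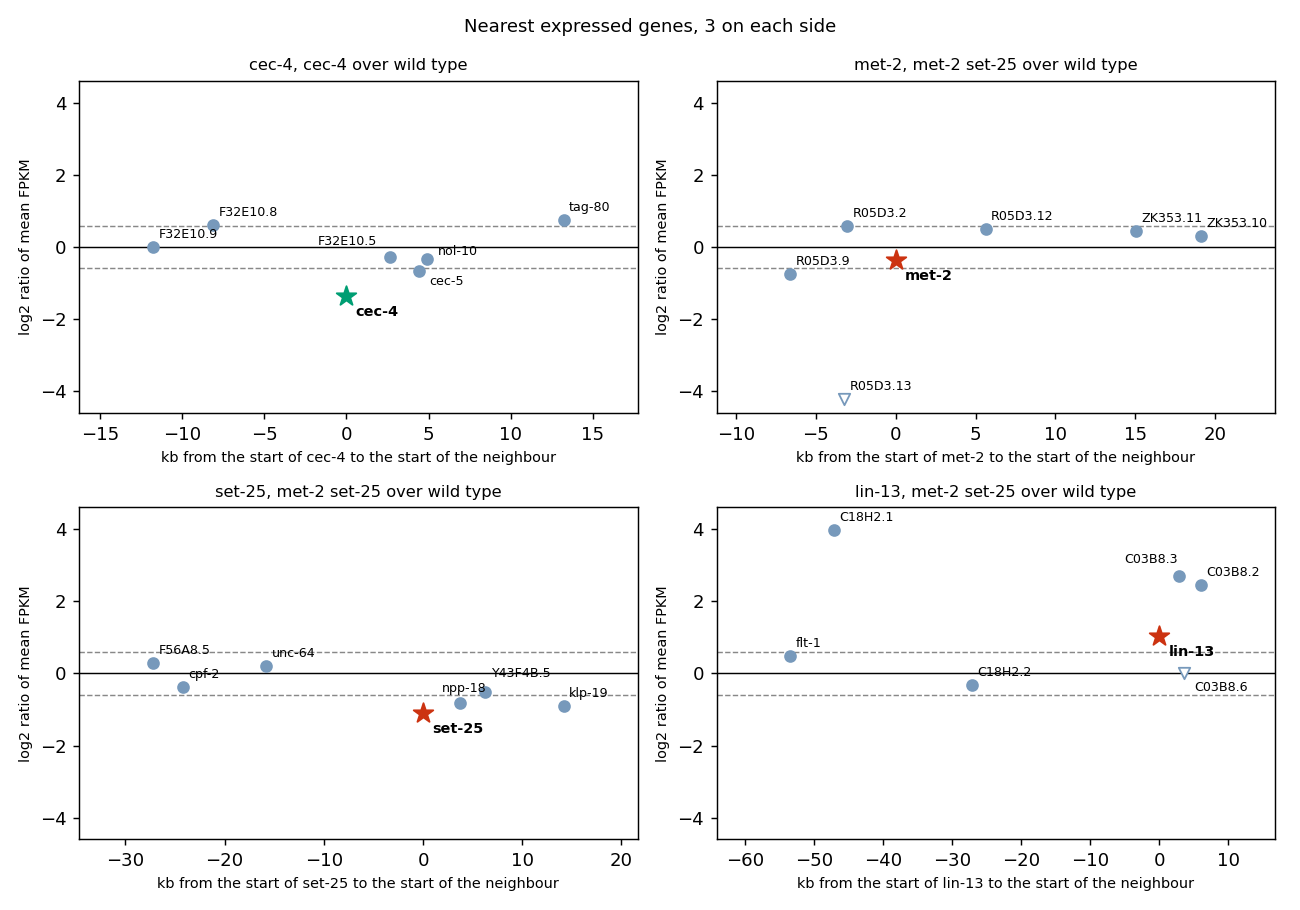
Log2 ratio of mean FPKM to wild type (vertical axis) for each mutated gene and *lin-13* (stars) and the 3 nearest genes above 1 FPKM on each side (circles), against the distance in kb between 5′ ends along the chromosome. Dashed lines mark 1.5-fold; open triangles are genes listed at 0 in 1 or both groups, with *R05D3.13* drawn at the lower edge. Beside *lin-13* at 1.03 are *C03B8.3* at 2.71 and *C03B8.2* at 2.46, and *C18H2.1* at 3.97 passed the minimum through the double mutant alone, while *cec-4* at -1.36 has neighbours between -0.66 and 0.74.

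The other genes of the pathway were read as lists of 26 genes, 25 of them above 1 FPKM (*set-33* was under it). In *dpy-27(RNAi)*-labelled worms 1 of 25 was past 1.5-fold higher and 0 lower, in *cec-4* mutants 2 higher and 4 lower, and in *met-2 set-25* mutants 5 higher and 2 lower. As shares of 25 these counts are set beside the shares of all genes given above, 22.0% higher and 11.7% lower in *cec-4* mutants and 21.5% and 16.3% in *met-2 set-25* mutants, and nothing is read from them about the lists. Of these lists, nuclear RNAi held the gene that differed most. *hrde-1*, the germline nuclear Argonaute that carries inherited silencing, had 65.4 FPKM in *met-2 set-25* mutants, against 6.19 FPKM in *dpy-27(RNAi)*-labelled worms, 4.198 FPKM in *cec-4* mutants and 4.12 FPKM in wild type. It was 15.5-fold above wild type in the double mutant (log2 ratio 3.96), the group in which the germline markers were also high, and the part of germline transcripts in this value was not tested. *nrde-2*, a nuclear RNAi factor, had 38.2 FPKM in *met-2 set-25* mutants and 22.2 FPKM in wild type (0.78), and *nrde-1*, *nrde-3* and *nrde-4* were within 1.5-fold in all comparisons.

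Of the lamina and envelope genes, which act where CEC-4 anchors chromatin, *emr-1* (emerin) was lower in both mutants. It had 87.8 FPKM in *dpy-27(RNAi)*-labelled worms, 51.4 FPKM in *cec-4* mutants, 48.1 FPKM in *met-2 set-25* mutants and 86.5 FPKM in wild type, so the mutants stood apart from both N2 groups (log2 ratios -0.75 and -0.84 to wild type). *lem-2*, the other LEM-domain gene of the inner nuclear membrane, had 25.4 FPKM in *cec-4* mutants and 37.3 FPKM in wild type (-0.55), and *baf-1*, whose protein links DNA to LEM-domain proteins, had 105 FPKM in *cec-4* mutants and 157 FPKM in wild type (-0.58). Both are just short of 1.5-fold. The lamin gene *lmn-1* was within 1.5-fold of wild type in each group, with 217 FPKM in *dpy-27(RNAi)*-labelled worms, 220 FPKM in *cec-4* mutants, 227 FPKM in *met-2 set-25* mutants and 238 FPKM in wild type.

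Other chromodomain genes differed in both directions. *cec-2* had 10.7 FPKM in *cec-4* mutants and 10.6 FPKM in *met-2 set-25* mutants against 5.68 FPKM in wild type (log2 ratios 0.90 and 0.88). *cec-8* had 4.44 FPKM in *cec-4* mutants and 15.8 FPKM in *met-2 set-25* mutants against 6.88 FPKM in wild type, so it stood on opposite sides of wild type in the 2 mutants (-0.62 and 1.19). *cec-7* had 17.5 FPKM in *cec-4* mutants and 26.96 FPKM in wild type (-0.62). With *cec-5*, 3 of 6 genes of this list were lower and 1 higher in *cec-4* mutants, and 0 lower and 2 higher in *met-2 set-25* mutants. With 6 genes, beside 11.7% lower and 22.0% higher of all genes in *cec-4* mutants and 16.3% and 21.5% in *met-2 set-25* mutants, these counts are not read as a result about the list.

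Among genes with a SET domain, the fold that carries methyltransferase activity, *set-11* was past 1.5-fold higher in all comparisons. It had 5.45 FPKM in *dpy-27(RNAi)*-labelled worms, 6.19 FPKM in *cec-4* mutants, 8.25 FPKM in *met-2 set-25* mutants and 3.10 FPKM in wild type, with log2 ratios of 0.80, 0.97 and 1.38, and all share that 1 low wild type mean. *met-1*, an H3K36 methyltransferase gene, had 25.9 FPKM in *cec-4* mutants, 25.6 FPKM in *met-2 set-25* mutants and 20.2 FPKM in wild type, within 1.5-fold. *set-20*, a predicted methyltransferase, was past 1.5-fold lower in *met-2 set-25* mutants alone, with 6.96 FPKM there and 12.4 FPKM in wild type (-0.83). *set-6*, predicted likewise, had 11.5 FPKM in *met-2 set-25* mutants and 10.7 FPKM in wild type. The demethylase genes *jmjd-1.2* and *jmjd-2* and the MET-2 cofactor genes *lin-65* and *arle-14* were within 1.5-fold of wild type in all comparisons. As examples, *jmjd-1.2* had 37.5 FPKM and *lin-65* 13.5 FPKM in *met-2 set-25* mutants, against 33.7 FPKM and 14.6 FPKM in wild type.

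**Figure D4:**
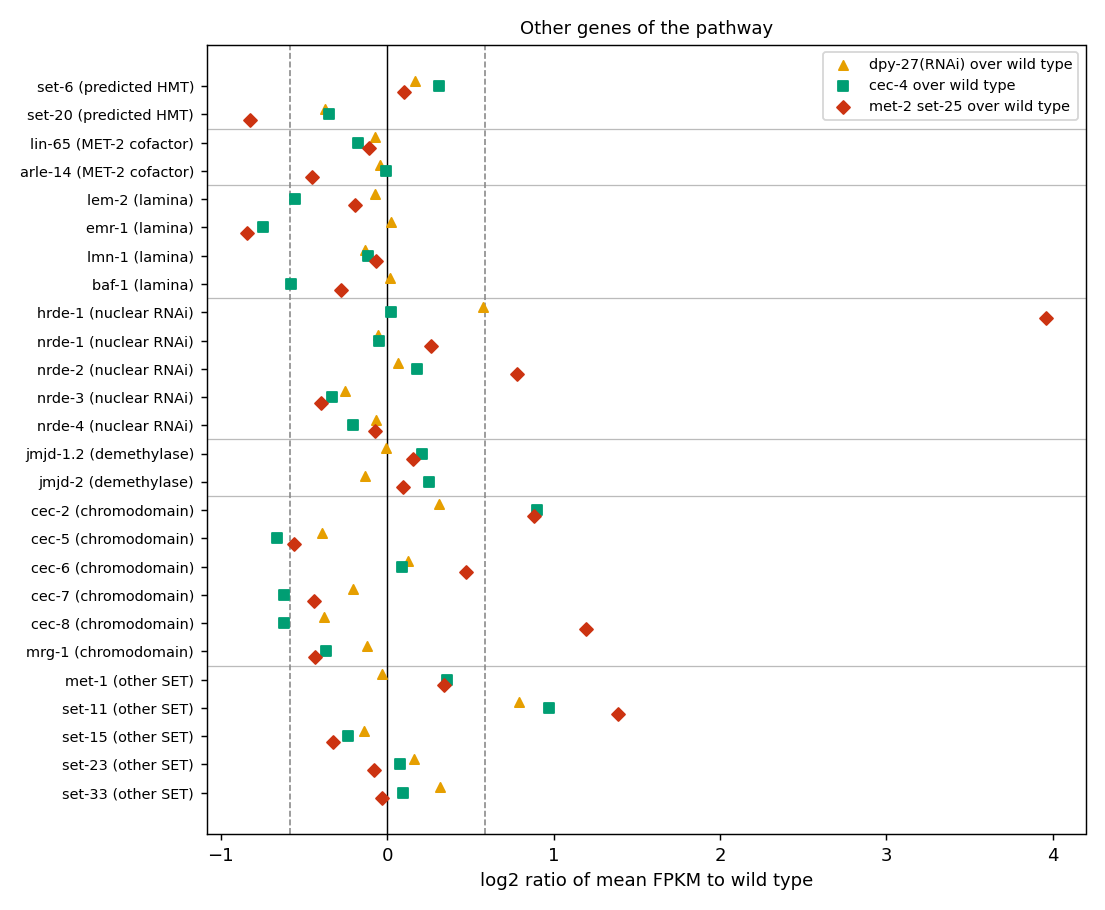
Log2 ratio of mean FPKM to wild type (horizontal axis) for 26 other genes of the pathway, 1 symbol per comparison, with horizontal lines between lists and dashed lines at 1.5-fold. *hrde-1* at 3.96 in *met-2 set-25* mutants lies farthest out, and *set-11* is right of the upper line in all 3 comparisons.

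The pattern of each mutated gene past 1.5-fold was set beside those of 11526 other genes with a mean above 5 FPKM and a position in the annotation, by the distance over the 3 log2 ratios. For *set-25* the closest were *T04F3.4* (0.071), *F08C6.12* (0.076) and *daf-22*, a gene of peroxisomal beta-oxidation (0.11), and 89 genes were within 0.3. *daf-22* had 54.8 FPKM in *met-2 set-25* mutants and 111 FPKM in wild type. For *cec-4* the closest were the mismatch repair gene *msh-6* (0.27), the kinetochore gene *hcp-4* (0.28) and *K03E5.9* (0.29), and these 3 were the ones within 0.3. *msh-6* had 4.52 FPKM in *cec-4* mutants, 11.8 FPKM in *met-2 set-25* mutants and 9.85 FPKM in wild type. The likeness is over 3 ratios that share a control, and is a description.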

How the data were processed

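L1 larvae of 4 groups (13 libraries) were measured by non-stranded poly(A) mRNA-seq. According to the methods and the submitters' notes, the authors trimmed reads with Trim Galore, aligned them to genome version WS235 with TopHat2 2.0.13, which kept reads with several hits. Cufflinks 2.2.1 gave the expression values, of which the authors deposited 1 mean FPKM for every gene and group. Depth per library was not analysed here, and group means allow neither error nor interval. The authors also deposited a table of log2 fold changes and adjusted p-values made with HTSeq 0.6.0 and DESeq2 1.6.3 in R 3.2.3, which was not used. Columns of per-library values used or left out numbered 0.

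From the deposited FPKM, log2 ratios to wild type were computed with a pseudocount of 0.1 FPKM, which understates ratios of low genes, for 16438 of 46170 genes with a mean over the groups above 1 FPKM. Gene positions came from Ensembl release 115 of WBcel235, the assembly of WS235. It placed 45871 IDs and lacked 299, of which 153 were above 1 FPKM. No promoter, protein or transcript sequence was used. The median ratio of all genes tested was 0.04 in *dpy-27(RNAi)*-labelled worms, 0.12 in *cec-4* mutants and 0.05 in *met-2 set-25* mutants.

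Named were all 10 genes, every listed gene past 1.5-fold and the first of each list, the nearest gene on each side of each mutated gene, and the 3 genes most like *set-25* and *cec-4* in pattern. *R05D3.9*, *R05D3.13*, *klp-19*, *baf-1*, *met-1*, *nrde-1*, *nrde-3*, *nrde-4*, *lmn-1*, *jmjd-2*, *arle-14*, *set-33* and the neighbours of *lin-13* were added after their values were seen. The genes and lists were chosen with earlier results of these data known. Alternatives covered the pseudocount, centring, threshold, filter, reference and number of neighbours. Protein-coding backgrounds and neighbours were added after seeing the data. The ratio code was tested on simulated data. Python 3.11.15, numpy 2.4.6, pandas 2.3.3 and matplotlib 3.10.9 were used.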

Additional observations from a re-analysis of the deposited data

How the results depend on the processing

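Counts of the 9 genes past the threshold moved with the fold and the reference. At a log2 threshold of 0.3219, 1 gene (*set-25*) was lower in *dpy-27(RNAi)*-labelled worms, beside 15.59% of all genes. In *cec-4* mutants 3 were lower (*cec-4*, *cec-3*, *hpl-2*), beside 22.35% of all genes. In *met-2 set-25* mutants 2 were higher (*cec-4*, *lin-13*), beside 34.04%, and 4 lower (*met-2*, *set-25*, *cec-3*, *hpl-2*), beside 26.69%. Counts this small, here and at the settings below, are not read as a result about the 9 genes. At 2-fold, 1 was lower in *cec-4* mutants (*cec-4*), beside 5.29% of all genes. In the double mutants 1 was lower (*set-25*), beside 7.53%, and 1 higher (*lin-13*), beside 11.19%. With no filter, *set-32* made 1 higher in *dpy-27(RNAi)*-labelled worms, beside 17.54% of the genes then counted. With the geometric mean of the other 3 groups in place of wild type, 1 was lower in *cec-4* mutants (*cec-4*), beside 9.77%. The double mutants then had 1 lower (*set-25*), beside 13.26%, and 2 higher (*lin-13*, and *cec-4* at 0.89), beside 13.52%. Of 108 alternative values of single genes, 105 stayed on their side of 1.5-fold, 2 were no longer past it (*hpl-2* in both mutants), 1 was newly past it and 0 of the calls changed sign. Centring on the median of all genes changed no call, but put *met-2* and *cec-1* in *cec-4* mutants and *lin-13* in *dpy-27(RNAi)*-labelled worms just below 0. With 5 neighbours on each side, 5 of 10 around *set-25* were lower in *met-2 set-25* mutants, beside 16.3% of all genes. They were *npp-18*, *klp-19*, *F56A8.3* (-0.73) and the small nucleolar RNA genes *Y43F4B.11* and *Y43F4B.12*, both listed at 0 in these mutants. *Y43F4B.11* was also listed at 0 in *cec-4* mutants, and no result about the region is read from this count. No library could be left out and no paired analysis was possible because the values used are group means.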
